A study of Mus musculus with 4 samples.

Results

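The genes described here encode the mitochondrial respiratory chain, complexes I to IV, and the ATP synthase, complex V, in the globus pallidus of mice given cocaine or saline. They were picked out by symbol, from probes that the platform annotation ties to exactly 1 gene symbol: the Nduf names with a letter of the a, b, c, s or v series for complex I, Sdha to Sdhd for complex II, the Uqcr names and Cyc1 for complex III, the Cox4 to Cox8 names for complex IV and the Atp5 names for complex V. The rule found 83 genes of the 19087 with 1 symbol on the array, measured by 114 spots of 45018. Complex I had 35 of these genes, complex II 4, complex III 9, complex IV 18 and complex V 17. Ndufa4 stands with complex I because of its symbol, although its protein is now assigned to complex IV.

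The study compared male C57BL6 mice that received cocaine at 15 mg/kg on days 2, 3 and 4 of a conditioned place preference protocol, and that scored low for preference, with male C57BL6 mice that received saline on the same days. Each of 4 Agilent whole mouse genome arrays, with 60-mer probes in the 44k format, carried the globus pallidus RNA of 1 cocaine mouse in one dye and of 1 saline mouse in the other, which makes 8 mice in all. Cocaine RNA was in Cy5, the red dye, on arrays 1 and 3 and in Cy3, the green dye, on arrays 2 and 4. Age was not given, and the low score is a label of the cocaine mice for which no value was used here.

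The value of a gene on an array is read as the log2 ratio of its 2 channels, most likely cocaine over saline. Neither the numerator nor the scale of the logarithm was given. The log2 scale was read from the values, and every fold below would differ on another scale. The direction was taken from the order in which the design names the groups, and every direction below turns round if the ratio is saline over cocaine. Opposite dye orientations correlated at -0.96 to -0.83 over all spots of the deposited table, and equal orientations at 0.87 and 0.90. The deposited values therefore carried a dye bias, which was removed on each array by a loess curve before treatment was tested. Since the curve uses a bias shared by the arrays, it ties the 4 values of each gene to one another: those of arrays 1 and 3 sum to nearly the same as those of arrays 2 and 4. For any gene with a mean near 0, arrays of equal orientation therefore tend to fall on opposite sides of 0. Where an array is left out below, normalization and the fit with its dye term were run anew on the rest. In such a refit the array left alone in its orientation weighs as much as both others together. The values of a refit are therefore not plain means of the arrays left in. The number of arrays limits the precision. The globus pallidus is bulk tissue, so that fewer cells of a type and less RNA per cell cannot be told apart.

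Complex I takes electrons from NADH and complex II from succinate. Both pass them to ubiquinone, and complexes III and IV hand them on through cytochrome c to oxygen. Complexes I, III and IV pump protons across the inner mitochondrial membrane, and complex V lets them flow back to make ATP. Most subunits are encoded in the nucleus and a few in mitochondrial DNA. Pallidal neurons fire spontaneously and at high rates, which places a steady demand on ATP supply.

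The promoter windows of 3 members are shown because the word that binds NRF1, a transcription factor known for its sites in respiratory chain promoters, lies in each of them, and because they are among the genes described most closely below. The windows run from 250 bases before to 50 bases after the annotated start, come from RefSeq on assembly GRCm38.p6, and are written 5′ to 3′ on the gene's strand. Capitals mark the word GCGCATGC or its reverse complement GCATGCGC, which overlap in the first pair of windows. The positions are chr5:115348909-115349208 on the minus strand for Cox6a1, chr9:108936398-108936697 on the plus strand for Uqcrc1 and chr4:140961021-140961320 on the plus strand for Sdhb.
Cox6a1: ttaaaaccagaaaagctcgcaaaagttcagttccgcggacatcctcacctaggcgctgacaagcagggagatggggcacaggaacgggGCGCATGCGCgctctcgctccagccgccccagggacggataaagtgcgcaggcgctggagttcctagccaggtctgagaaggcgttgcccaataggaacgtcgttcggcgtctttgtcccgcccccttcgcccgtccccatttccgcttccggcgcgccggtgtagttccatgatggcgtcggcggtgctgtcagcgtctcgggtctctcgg
Uqcrc1: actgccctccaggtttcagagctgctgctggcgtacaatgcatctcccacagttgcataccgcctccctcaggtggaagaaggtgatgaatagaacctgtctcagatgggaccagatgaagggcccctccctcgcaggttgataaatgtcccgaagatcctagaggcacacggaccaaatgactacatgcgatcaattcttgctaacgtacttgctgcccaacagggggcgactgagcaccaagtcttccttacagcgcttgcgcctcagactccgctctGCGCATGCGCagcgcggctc
Sdhb: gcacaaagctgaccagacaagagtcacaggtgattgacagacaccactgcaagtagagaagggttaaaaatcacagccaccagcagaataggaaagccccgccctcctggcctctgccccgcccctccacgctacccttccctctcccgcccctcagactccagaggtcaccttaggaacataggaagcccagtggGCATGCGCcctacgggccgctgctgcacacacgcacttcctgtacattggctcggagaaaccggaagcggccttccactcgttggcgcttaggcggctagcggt

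In Cox6a1, the common form of a small complex IV subunit, the first base of the word lay 162 bases before the start. In Uqcrc1, a core subunit of complex III, it lay at base 31 after the start, and in Sdhb, the iron-sulfur subunit of complex II, the reverse complement began 54 bases before it. RefSeq windows were matched for 68 of the 83 genes. The word GCGCATGC, on either strand, was in 10 of these windows (14.7%), against 3.05% of all 27025 windows of the same length. The word AAGATGGC, which YY1 can bind, was likewise in 10 (14.7%), against 3.19% of all windows. The word CCGGAAGT, an ETS-type word that GABP can bind, was in 5 (7.35%), against 4.31% of all windows. A match of letters is a description of the window and does not show that a factor binds there. Genes with the NRF1 word had a median log2 ratio of -0.06, with 7 of 10 below 0, and the 58 other genes with a window a median of -0.01, with 33 below 0. For the YY1 word the medians were -0.04 with it, where 7 of 10 lay below 0, and -0.01 without it. For the GABP word they were -0.01 with it, where 3 of 5 lay below 0, and -0.02 without it. These splits were not tested. The 3 genes shown fall on both sides of 0, at 0.10 for Cox6a1, -0.16 for Uqcrc1 and -0.12 for Sdhb.

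No gene of the chain changed past the threshold in the cocaine mice. By limma with Benjamini-Hochberg adjustment over all 30452 features, 0 of the 83 genes had an adjusted p under 0.05, as did 0% of all features, and the smallest adjusted p of a member was 0.999. At an unadjusted p under 0.05 the count of members was again 0, beside 1.74% of all features. The smallest unadjusted p of a member was 0.078, for Cox7a2l. The mean log2 ratio was above 0 for 35 genes and below 0 for 48, with a median of -0.01, beside -0.003 for the other 19004 genes. It ran from -0.17 for Atp5b to 0.17 for Atp5e, which is a fold of at most 1.12 in either direction. For 70 of the 83 genes it stayed within 0.1 of 0.

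The intervals give the size of difference that the arrays leave possible. All 83 of the 95% confidence intervals of limma lay within 0.585 of 0 on the log2 scale, which is a fold of 1.5 in either direction. Among the 83 are Cox4i2, Cox7b2, Cox8b and Cox8c, with no spot above the background limit described below. Their intervals may not bound a change of a transcript. The bounds farthest from 0 were -0.51 and 0.50. Each interval is for 1 gene taken by itself and for the average of its spots. Of the 22 genes with several spots, 7 had spots on both sides of 0. The limma standard error, which draws in part on all features, had a median of 0.06 for a member on the log2 scale, the same as for the other genes. Whether background was subtracted before the ratios were taken was not tested, so these bounds hold for the deposited ratios after the loess step.

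**Figure D1:**
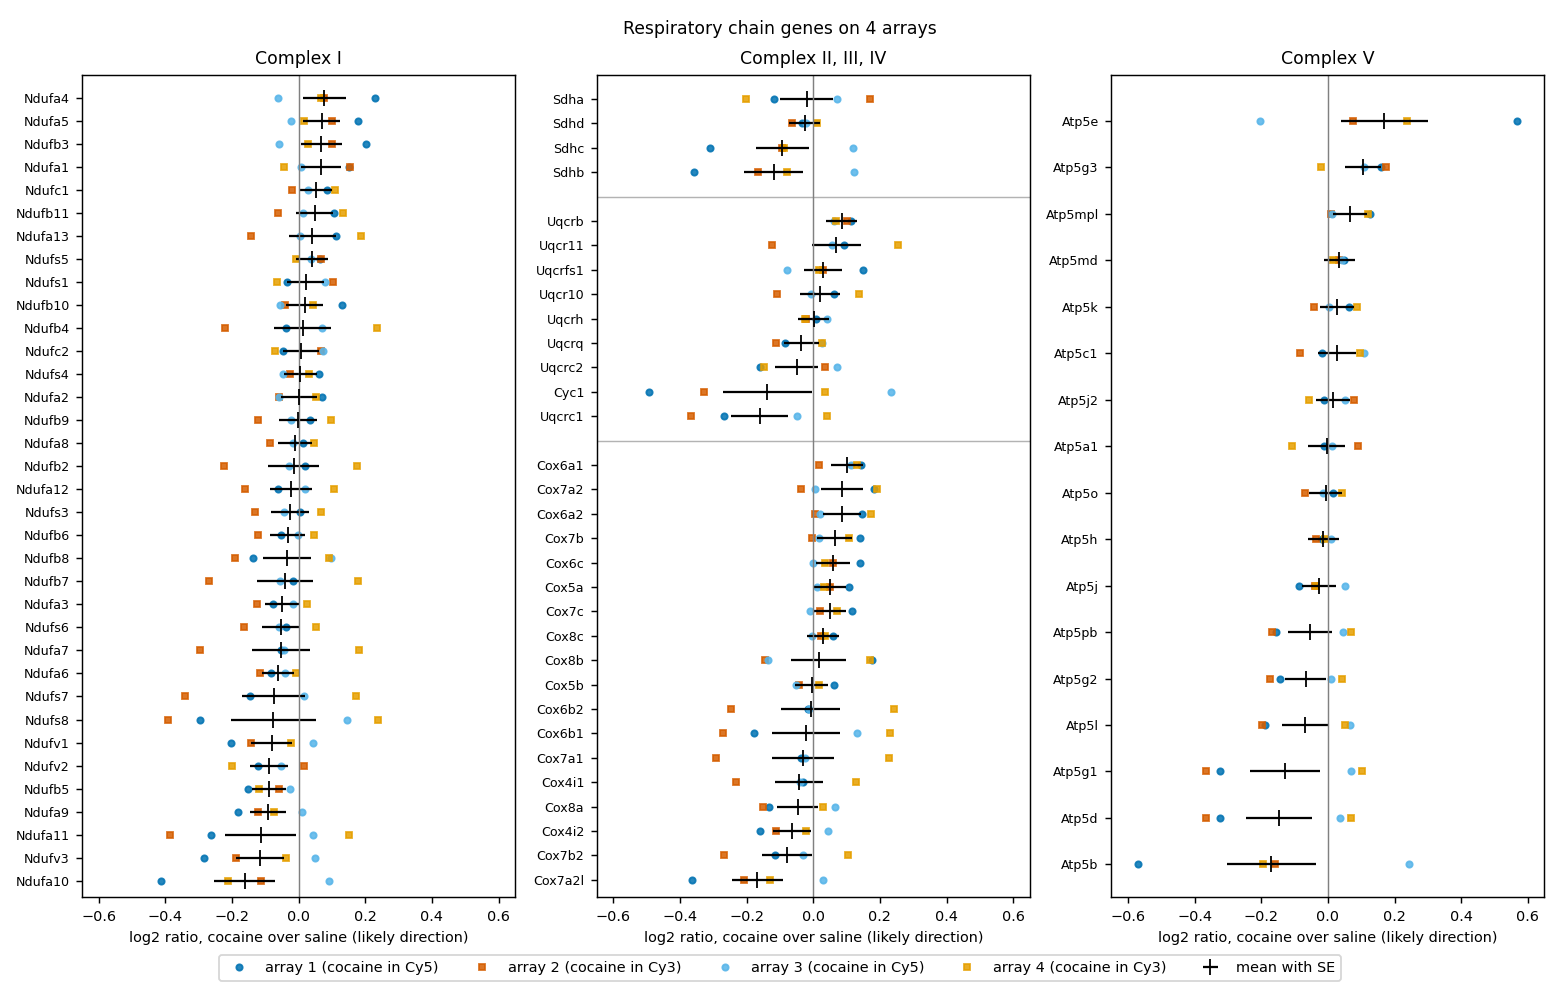
Log2 ratios, cocaine over saline as read from the design, of the 83 respiratory chain genes, in panels by complex; each coloured point is 1 array after normalization and the black tick is the mean of the 4 arrays with its standard error as a bar. The means lie between -0.17 and 0.17, and the single arrays of a gene spread more widely than the means.

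Complex I had 14 genes above 0 and 21 below, with a median of -0.02. Among its core subunits are those that carry the flavin and the iron-sulfur clusters. Of the 6 core genes counted here 5 lay below 0, with a median of -0.08. That count was not stable when an array was left out. In the refit without array 2 it was 2 of 6 with a median of 0.04, and without array 3 it was 6 of 6 with a median of -0.14. Ndufv1, which holds the NADH site, had log2 ratios of -0.20, -0.14, 0.04 and -0.02 on arrays 1 to 4, with a mean of -0.08 ± 0.06 (SE, n = 4; limma, unadjusted p = 0.246). Ndufv2, its iron-sulfur partner, had -0.12, 0.02, -0.05 and -0.20, with a mean of -0.09 ± 0.06 (limma, unadjusted p = 0.178). Both had 3 of 4 arrays below 0, and in each the remaining array lay on the other side.

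Ndufs7 and Ndufs8 hold the iron-sulfur clusters nearest to ubiquinone. Ndufs8 had log2 ratios of -0.30, -0.39, 0.15 and 0.24 on arrays 1 to 4, with a mean of -0.08 ± 0.13 (limma, unadjusted p = 0.576). Ndufs7 had -0.15, -0.34, 0.02 and 0.17, with a mean of -0.07 ± 0.09 (limma, unadjusted p = 0.464). Both genes were below 0 on arrays 1 and 2 and above 0 on arrays 3 and 4, and the arrays differed more among themselves than the mean did from 0. Ndufs1, the largest of the iron-sulfur subunits of the peripheral arm, was the core gene above 0, with -0.04, 0.10, 0.08 and -0.07 and a mean of 0.02 ± 0.06 (limma, unadjusted p = 0.727).

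The 29 accessory genes of complex I, which surround the core and are needed for its assembly and stability, had a median log2 ratio of -0.01, and 16 of them lay below 0. Ndufa10 was the lowest gene of the complex, with -0.41, -0.11, 0.09 and -0.21 on arrays 1 to 4 and a mean of -0.16 ± 0.09 (limma, unadjusted p = 0.135). Ndufv3, next to it, had -0.28, -0.19, 0.05 and -0.04, with a mean of -0.12 ± 0.07 (limma, unadjusted p = 0.171). On array 3 both genes were above 0, unlike on the other arrays. Ndufa11, a membrane subunit, averaged -0.11, and the other accessory genes lay between there and 0.07. Ndufa4 had the highest mean grouped here, 0.08 ± 0.06, from 0.23, 0.07, -0.06 and 0.07 (limma, unadjusted p = 0.28). Ndufa5 had 0.18, 0.10, -0.02 and 0.02, with a mean of 0.07 ± 0.06 (limma, unadjusted p = 0.279). Ndufb5 and Ndufa6, at -0.09 and -0.06, were the complex I genes with the same sign on 4 arrays.

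Complex II is also the succinate dehydrogenase of the tricarboxylic acid cycle, and it is the one complex here without a subunit encoded in mitochondrial DNA. Each of its 4 genes had a mean below 0, with a median of -0.06, and none passed the test. Sdhb had log2 ratios of -0.36, -0.16, 0.12 and -0.08 on arrays 1 to 4, with a mean of -0.12 ± 0.09 (limma, unadjusted p = 0.233). Sdhc, a membrane anchor, had -0.31, -0.09, 0.12 and -0.09, with a mean of -0.09 ± 0.08 (limma, unadjusted p = 0.301). These values place Sdhb and Sdhc side by side on every array, lowest on array 1 and above 0 on array 3.

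Sdhd, the other anchor, stayed close to 0, with -0.03, -0.06, -0.02 and 0.01 and a mean of -0.03 ± 0.05 (limma, unadjusted p = 0.6). Sdha, the flavoprotein, had -0.12, 0.17, 0.07 and -0.20, with a mean of -0.02 ± 0.08 (limma, unadjusted p = 0.81). Its 3 spots differed by 0.29, with means of -0.15, 0.14 and -0.05, the widest disagreement between spots of a chain gene. In the refit without array 1 the median of complex II was 0.01 and in that without array 3 it was -0.13, so that its sign was not stable.

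Complex III had 5 genes above 0 and 4 below, with a median log2 ratio of 0.001. Its redox and core subunits had a median of -0.09, with 3 of 4 below 0, and the 5 small subunits a median of 0.02, with 1 of 5 below 0. Uqcrc1 had -0.27, -0.37, -0.05 and 0.04 on arrays 1 to 4, with a mean of -0.16 ± 0.09 (limma, unadjusted p = 0.114). Cyc1, the cytochrome that passes electrons to cytochrome c, had -0.49, -0.33, 0.23 and 0.04, with a mean of -0.14 ± 0.13 (limma, unadjusted p = 0.348). Cyc1 was low on arrays 1 and 2 alone. Its value in the refit was 0.05 without array 1 and 0.002 without array 2, neither of them the plain mean of the arrays left in.

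Uqcrfs1, the Rieske iron-sulfur protein, had log2 ratios of 0.15, 0.03, -0.08 and 0.02 and a mean of 0.03 ± 0.06 (limma, unadjusted p = 0.632). Uqcrb, a small subunit that contacts bound ubiquinone, had 0.11, 0.10, 0.06 and 0.07, with a mean of 0.09 ± 0.05 (limma, unadjusted p = 0.124). It was the complex III gene above 0 on all 4 arrays. Uqcr11, another small subunit, had 0.09, -0.13, 0.06 and 0.25, with a mean of 0.07 ± 0.07 (limma, unadjusted p = 0.394). The remaining genes of the complex lay nearer to 0, with Uqcrc2, a core subunit, at -0.05, and the small subunits Uqcrq, Uqcrh and Uqcr10 at -0.04, 0.001 and 0.02.

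Complex IV, cytochrome c oxidase, had 9 genes above 0 and 9 below, with a median log2 ratio of 0.01. Several of its nuclear subunits exist as a common form and as forms known from muscle, lung, testis or other tissues. The 10 common forms had a median of 0.05, with 4 below 0, and the 7 alternative forms a median of -0.01, with 4 below 0. Of the alternative forms, Cox7b2, Cox4i2, Cox8b and Cox8c had no spot above the background limit described below. Their ratios, here and in the pairs that follow, may therefore not measure a transcript. Cox7a2l, a relative of Cox7a2 that helps to join complexes III and IV in supercomplexes, was the lowest, with -0.36, -0.21, 0.03 and -0.13 on arrays 1 to 4 and a mean of -0.17 ± 0.08 (limma, unadjusted p = 0.078). The next lowest, Cox7b2, a form known from testis, averaged -0.08 ± 0.07 (limma, unadjusted p = 0.345).

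Cox6a1 was the highest of complex IV, with 0.14, 0.02, 0.11 and 0.13 on arrays 1 to 4 and a mean of 0.10 ± 0.05 (limma, unadjusted p = 0.0921). Cox6a2, its heart and skeletal muscle form, had 0.15, 0.004, 0.02 and 0.17, with a mean of 0.09 ± 0.06 (limma, unadjusted p = 0.186). The pair lay above 0 on all 4 arrays, as did Cox5a, a subunit of the matrix side, with a mean of 0.05 ± 0.05 (limma, unadjusted p = 0.346). Cox5b, which binds zinc on the matrix side, averaged -0.004 ± 0.05 (limma, unadjusted p = 0.937).

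In other pairs the forms lay close together or on opposite sides of 0. Cox7a2 averaged 0.09 and its muscle form Cox7a1 -0.03. Cox4i1, the common form of the subunit through which ATP regulates the enzyme, averaged -0.04 ± 0.07 (limma, unadjusted p = 0.576), and Cox4i2, known from lung, -0.06 ± 0.06 (limma, unadjusted p = 0.318). Cox6b1 averaged -0.02 and Cox6b2, known from testis, -0.01. Cox7b averaged 0.06, Cox7c 0.05, Cox6c, which has no second form on the array, 0.06, Cox8a -0.05, Cox8b 0.02 and Cox8c 0.03.

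Complex V had 7 genes above 0 and 10 below, with a median log2 ratio of -0.01, and it held both ends of the range. Atp5b, the catalytic beta subunit of the F1 head, had -0.57, -0.16, 0.24 and -0.20 on arrays 1 to 4, with a mean of -0.17 ± 0.13 (limma, unadjusted p = 0.259). Atp5e, the epsilon subunit of the same head, had 0.57, 0.08, -0.20 and 0.24, with a mean of 0.17 ± 0.13 (limma, unadjusted p = 0.247). On each array this pair of genes lay on opposite sides of 0, farthest apart on array 1. In the refit without array 1 the values were 0.03 for Atp5b and -0.03 for Atp5e, so that both signs turned. There array 3 alone stood for its orientation, and the turn cannot be laid to array 1 alone. The 3 spots of Atp5b also disagreed, with means of 0.01, -0.26 and -0.26.

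The other F1 subunits did not share one side. Atp5d, the delta subunit, had log2 ratios of -0.32, -0.37, 0.04 and 0.07, with a mean of -0.15 ± 0.10 (limma, unadjusted p = 0.196). Atp5a1, the alpha subunit, averaged -0.004 ± 0.06 (limma, unadjusted p = 0.95), and its 3 spots had means of 0.11, -0.06 and -0.06. Atp5c1, the gamma subunit that turns inside the head, averaged 0.03 ± 0.06 (limma, unadjusted p = 0.665). Among the 5 genes of the head 3 lay below 0, with a median of -0.004.

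Atp5g1, Atp5g2 and Atp5g3 encode the same mature c subunit, the ring that protons drive, with different import sequences. Atp5g3 had 0.16, 0.17, 0.11 and -0.02 on arrays 1 to 4, with a mean of 0.11 ± 0.06 (limma, unadjusted p = 0.111). Atp5g1 had -0.32, -0.37, 0.07 and 0.10, with a mean of -0.13 ± 0.11 (limma, unadjusted p = 0.271), and Atp5g2 averaged -0.07 ± 0.06 (limma, unadjusted p = 0.325). The genes for one protein thus stood on both sides of 0 on arrays 1, 2 and 4, and on array 3 all 3 were above 0. The difference between them was not tested. The 4 genes of the peripheral stalk, which holds the head still, lay between -0.05 (Atp5pb) and -0.01 (Atp5o). Of the 5 accessory membrane subunits 4 lay above 0, with a median of 0.03 and Atp5l below at -0.07, and Atp5md and Atp5mpl among them were above 0 on all 4 arrays.

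Few of the genes kept one sign across arrays. Of the 83 genes 8 (9.64%) had the same sign on all 4 arrays, 6 of them above 0 and 2 below, beside 15.8% of all features. The highest mean among these 8 was 0.10, of Cox6a1, and the lowest -0.09, of Ndufb5. Atp5b, Atp5e, Cox7a2l, Ndufa10 and Uqcrc1, with means farther from 0, each had arrays on both sides of it. On a single array a member differed by at most 1.48-fold as the average of its spots.

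The median of the chain varied more from array to array than that of the other genes, a difference that was not tested. In log2 ratio it was -0.02, -0.09, 0.01 and 0.04 on arrays 1 to 4, beside -0.01, -0.01, 0.01 and 0.01 for the other genes. The loess curve holds the bulk of the spots near 0 on every array, so the other genes could vary little. The standard deviation of the 4 array medians was 0.06 for the chain. For the lists described below it ran from 0.03 to 0.18, but all of them hold fewer genes, and a median over few genes varies more. It was 0.18 for the 2 genes encoded in mitochondrial DNA and 0.10 for the 15 tricarboxylic acid cycle genes. For the 30 assembly factors of complexes II to V it was 0.04, and for the 19 biogenesis genes 0.03. Whether such variation is particular to the chain therefore cannot be said. On array 2, 59 of the 83 genes (71.1%) lay below 0, beside 53.8% of the other genes, and on array 4 it was 24 of 83 (28.9%), beside 46.8%. On array 1 the count was 47 and on array 3 it was 33. Opposite shifts on arrays of equal orientation follow in part from that tie. In the refits the median of the mean ratios of the chain, -0.01, became 0.07 without array 2 and 0.01 without array 4. It was -0.06 without array 3 and -0.004 without array 1. The 0.07 lay above the chain median of each array left in, so it cannot be read as their average. Counts by role moved in the refit without array 2 as well. There 5 of 29 accessory genes of complex I and 2 of 4 redox and core genes of complex III lay below 0. So did 0 of 10 common forms of complex IV and 0 of 4 stalk genes of complex V.

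Complex II did not follow the other complexes in this. The medians of complex I were -0.04, -0.12, -0.002 and 0.05, those of complex III 0.01, -0.11, 0.04 and 0.04 and those of complex IV 0.06, -0.08, 0.002 and 0.11. Complex V had -0.02, -0.04, 0.04 and 0.04. Complex II had -0.21, -0.08, 0.10 and -0.08, with its lowest median on array 1 and its highest on array 3. Sdhb and Sdhc had these extremes, whereas Sdhd was lowest on array 2 and highest on array 4. Sdha was lowest on array 4 and highest on array 2. The redox and core genes of complex III also had their lowest median on array 1, at -0.21. The 4 genes of complex II are few, and the difference between complexes was not tested. In complex IV, 16 of 18 genes were above 0 on array 4, and in complex V 15 of 17 were above 0 on array 3.

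**Figure D2:**
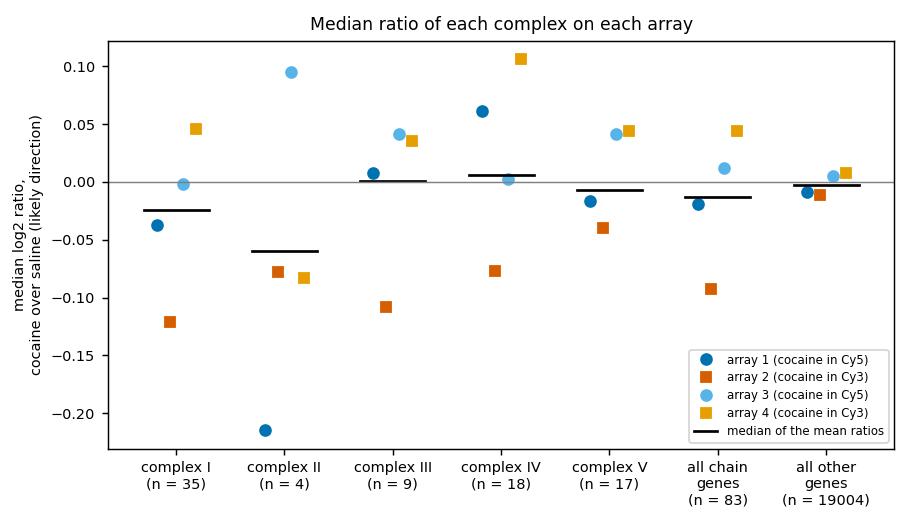
Median log2 ratio (cocaine over saline as read from the design) of each complex, and of all other genes with 1 symbol, on each of the 4 arrays. The medians of complexes I, III, IV and V were lowest on array 2, at -0.12 to -0.04, whereas that of complex II was lowest on array 1, at -0.21.

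The dye effect was large in these genes and was fitted on the values as deposited. The dye coefficient is the log2 ratio shared by both orientations when cocaine is turned to Cy5; it belongs to the probe and the dyes and is no expression level. Its median was 1.44 over the chain and 0.56 over the other genes. It was positive with an adjusted p under 0.05 in 79 of the 83 genes, beside 54.4% of all features, and negative in 1 gene, beside 11.9% (limma, Benjamini-Hochberg). The highest were Cox6a1 at 2.11 ± 0.07 (SE, n = 4; limma, adjusted p = 3.24e-04), Atp5g3 at 1.98 and Uqcrh, the hinge protein of complex III, at 1.86.

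The genes without a positive call were alternative forms of complex IV. Cox8c, known from testis, had a dye coefficient of -0.24 (limma, adjusted p = 0.0272). Cox7b2 had 0.11 (limma, adjusted p = 0.243), Cox4i2 0.09 (limma, adjusted p = 0.308) and Cox8b, a muscle form, 0.07 (limma, adjusted p = 0.52). The muscle or testis forms Cox7a1, Cox6a2 and Cox6b2 had dye coefficients of 1.20, 1.06 and 0.86.

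A coefficient above 0.115 was used as a stand-in for a signal above background, since intensities and detection flags were not used here. This limit is 3 SD above the mode among the spots whose coefficient was under the median of all spots. The SD was taken from the spots below that mode. By this limit 109 of the 114 chain spots were above background, beside 62.8% of all spots. The 5 others were the spots of Cox4i2, Cox7b2, Cox8b and Cox8c and 1 of the 2 spots of Ndufs4, an accessory subunit of complex I. The call depended on the limit: an alternative of 0.021, chosen after the data were seen, left 112 of the 114 spots above it, with Cox4i2, Cox7b2 and Cox8b among them and Cox8c below.

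**Figure D3:**
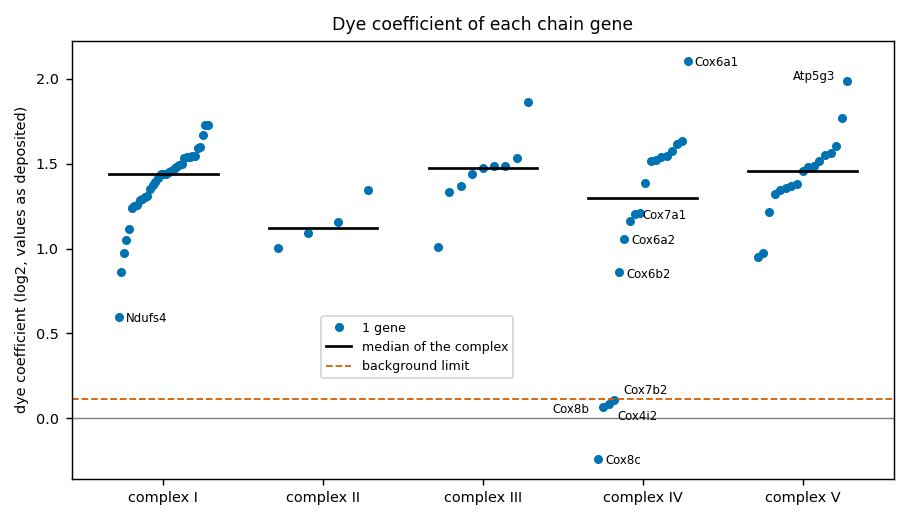
Dye coefficient (log2, values as deposited) of each chain gene, grouped by complex; each point is 1 gene, the black bar is the median of the complex and the broken line is the background limit of 0.115. Cox8c, Cox8b, Cox4i2 and Cox7b2 stand below the line at -0.24 to 0.11, and the other genes lie at 0.60 (Ndufs4) and above.

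Other mitochondrial genes were grouped in lists, and 0 of their members had an adjusted p under 0.05 (limma; 0% of all features). Of the subunits encoded in mitochondrial DNA 2 were on the array. COX2, a core subunit of complex IV, had log2 ratios of 0.17, 0.27, 0.14 and 0.004 on arrays 1 to 4, with a mean of 0.15 ± 0.06 (limma, unadjusted p = 0.0615). ND4L, of complex I, had -0.02, 0.45, 0.44 and -0.07, with a mean of 0.20. COX2 was above 0 on all 4 arrays, whereas ND4L was high on arrays 2 and 3 alone.

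The 13 assembly factors of complex I had a median log2 ratio of -0.03, with 4 above 0 and 9 below, and it was 0.01 without array 1. Ndufaf7 and Ndufaf5, with the smallest unadjusted p (limma), had log2 ratios of -0.10 and -0.09. The 30 assembly factors of complexes II to V had a median of 0.01, with 18 above 0 and 12 below. Cox15, needed for heme A, and Coa6, needed for copper delivery to complex IV, had log2 ratios of 0.12 and 0.10, and the smallest unadjusted p-values of the list (limma), 0.0892 and 0.112. The 8 chain genes with other names were split 4 to 4, with a median of -0.002. Among them Cyct, the testis form of cytochrome c, had a mean of -0.15 ± 0.05 (limma, unadjusted p = 0.0234), but its spot was not above background, and Atpif1, the inhibitor of complex V, averaged 0.10.

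Of 15 genes of pyruvate oxidation and the tricarboxylic acid cycle 12 lay below 0, with a median log2 ratio of -0.05, and the 2 genes with the smallest unadjusted p (limma), Pdhb and Suclg1, had log2 ratios of -0.12 and -0.14. The median was 0.004 without array 1 and 0.002 without array 4. Their array medians were -0.14, 0.02, 0.08 and -0.10, lowest on array 1 and highest on array 3, as in complex II. The 12 carriers and porins had a median of -0.02, with 8 below 0, and the 2 with the smallest p, Ckmt1, a mitochondrial creatine kinase, and Slc25a3, the phosphate carrier, had log2 ratios of -0.20 and -0.14. The 19 genes of mitochondrial biogenesis and DNA maintenance had a median of 0.004, with 10 above 0 and 9 below. Its 2 genes with the smallest p, Ssbp1, which binds single-stranded mitochondrial DNA, and Polg, the polymerase of mitochondrial DNA, had log2 ratios of 0.09 and -0.11.

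**Figure D4:**
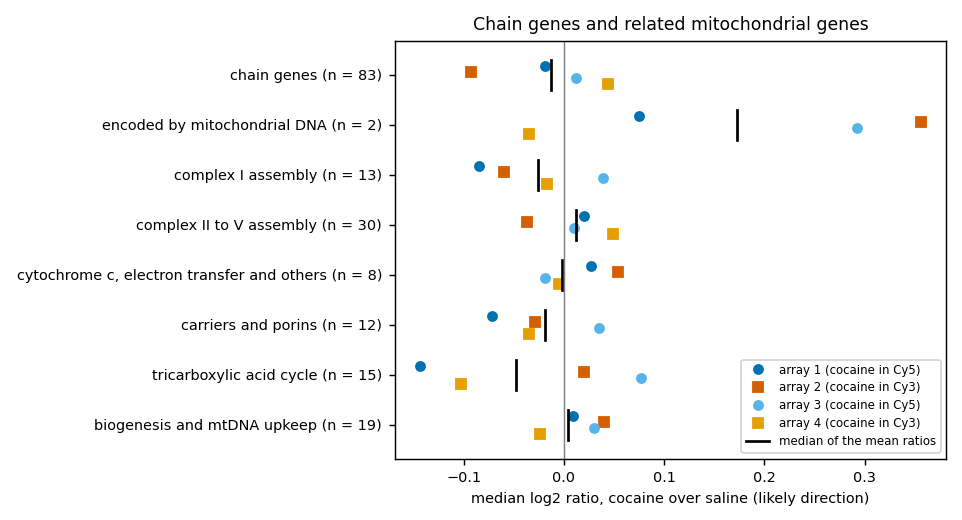
Median log2 ratio, cocaine over saline as read from the design, of the 83 chain genes and of 7 lists of related mitochondrial genes on each of the 4 arrays (coloured marks), with the median of the mean ratios as a black tick. The chain is lowest on array 2, at -0.09, and the tricarboxylic acid cycle genes are lowest on array 1, at -0.14.

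Markers of the cell types of the tissue were read beside the chain, since these types differ in their mitochondria. All 5 oligodendrocyte markers measured lay below 0, with a median log2 ratio of -0.13 and array medians of -0.22, -0.21, -0.01 and -0.05. Without array 2 that median was -0.03, without array 4 it was also -0.03, without array 1 -0.07 and without array 3 -0.21. Mag had the lowest mean of them, -0.32 ± 0.15 (limma, unadjusted p = 0.0813). Of the 5 astrocyte markers 4 lay below 0, with a median of -0.06, and of the 3 microglial markers 3, with a median of -0.07. The 11 neuronal markers had a median of -0.01, with 7 below 0 and array medians of -0.05, 0.05, 0.03 and -0.08. The 4 markers of striatal projection neurons were split 2 to 2, with a median of 0.03, and the 4 vessel markers had 3 above 0 and a median of 0.01. None of these markers passed the test. Their part in the array shifts of the chain was not tested.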

How the data were processed

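The deposited table holds the authors' ratio of the 2 channels for each spot and array, read here as log2. It was made with Agilent Feature Extraction according to the submitters' processing notes, which give no version. RNA was extracted with a PicoPure kit and aliquots of 75 ng were amplified and labelled, per the labels' protocols. Scale, lack of centring and direction were read from the values and the design, so the log2 scale and the direction are only likely. Of 45220 rows, 202 that were 0 on all arrays were left out.

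Each array was normalized by a loess curve (limma loessFit, span 0.3) against the mean dye bias of the 2 orientations, a step the original plan did not hold, since it assumed normalized ratios. Spots of 1 gene were averaged, and limma 3.58.1 in R 4.3.3 fitted treatment and dye over 30452 features, with Benjamini-Hochberg adjustment and a threshold of 0.05. The dye effect was fitted on the deposited values. The fit was run on simulated data with effects larger than any mean ratio of the chain and noise smaller than the spread of the arrays. That run does not show how well changes of the size seen here would be found. Probes had 1 symbol (33653), several (56) or none (11511), and 83 of 83 chain genes matched RefSeq by Entrez identifier.

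The gene group and the lists were chosen with earlier results of these data known, and the members then follow from their symbols. The genes chosen for description were the 2 highest and 2 lowest of each complex, complex II, core redox subunits and paralog groups. To these came the 2 genes with the smallest p-values in each list of related mitochondrial genes. Array values, standard errors and p-values are given for some of these genes, and the mean alone for others. Nothing beyond the labels shows separate cages or preparations, so p-values reach no further than these 4 arrays. The standard errors and p-values of limma are moderated, with 5.21 degrees of freedom. They combine the spread of a gene over the 4 arrays, after the dye term, with the spread typical of all features. A gene whose arrays lie close together therefore has a larger standard error here than its own 4 values would give. Alternatives were other normalizations, no dye term, spot medians, a background limit, another prior and leaving out each array.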

Additional observations from a re-analysis of the deposited data

How the results depend on the processing

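The count of chain genes past the treatment threshold was 0 under each of the 12 alternatives over genes, with a smallest adjusted p of 0.338, found without array 4 (limma). At an unadjusted p under 0.05 the count was 3 with no dye term, 0, 4, 8 and 5 without arrays 1 to 4, and 0 under the others. The share of all features at that level was not taken under these alternatives. Whether the counts differ from it therefore cannot be said. The dye count was 78 with each array centred on its median, and 79 in the fit reported. Centring put 18 of all features past the treatment threshold, none of them a chain gene.

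The sign of the log2 ratio turned in 4 of 83 genes with median centring, 3 with no normalization, 1 with a loess span of 0.6, 2 of 79 with spots above background alone, and 18, 29, 12 and 14 without arrays 1 to 4. Of the 13 genes reaching 0.1, the sign of 4 turned without array 1 and of 3 without array 2. The causes were not tested.

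Leaving out each array in turn gave medians of -0.067 to 0.073 for complex I, -0.13 to 0.008 for complex II, -0.091 to 0.0799 for complex III, 0.00690 to 0.099 for complex IV, -0.068 to 0.052 for complex V and -0.059 to 0.072 for the chain. The ranges were -0.00494 to 0.047 for chain genes with other names, -0.085 to 0.014 for carriers and porins, -0.092 to 0.0602 for neuronal markers and -0.088 to -0.00876 for astrocyte markers. They were -0.099 to 0.0037 for tricarboxylic acid cycle genes, -0.21 to -0.031 for oligodendrocyte markers, -0.11 to -0.036 for microglial markers and -0.061 to 0.0096 for complex I assembly factors. The ratio compares 1 cocaine and 1 saline mouse within each array, so the fit is already paired by array, and no other pairing of the arrays was possible because they form 1 group.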
